A study of Mus musculus with 12 samples.

Results

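Notch receptors, their ligands and the proteins that process and transmit the signal were examined in dendritic cells of Cre+ mice, which carried a deletion of the TGF-beta receptor TGFBR2, and of Cre- mice. The rule named 9 genes: the receptors Notch1, Notch2 and Notch4, the ligands Dll1, Dll4 and Jag1, the protease Adam10, the DNA-binding transducer Rbpj and the target Hes1. A gene was described where a probe set of the array was annotated with its symbol and no other, which held for 8 of the 9 genes with 1 probe set each, that is 8 of 23332 probe sets. The only probe set for Notch4 also listed Btnl2 and Btnl6, so no value is given for Notch4.

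The samples formed 4 groups of 3, each hybridised to its own Affymetrix Mouse Exon 1.0 ST array, 12 arrays in all. The groups were Cre+ dendritic cells from mesenteric lymph nodes (MLN), Cre- dendritic cells from MLN, Cre+ dendritic cells from spleen and Cre- dendritic cells from spleen. All mice were on the C57BL/6 background. Cre+ mice carried the TGFBR2 deletion, which per the study's account was targeted to dendritic cells. The control mice were Cre-. The sources used here name neither the promoter that drove Cre, the deleted exons nor the ages of the mice. MLN cells were flow-sorted as CD11c+CD103+, each sample being a pool of 4 mice. Splenic cells were sorted as CD11c+ with magnets, and the number of mice behind each of those samples was not given. Cells were not treated before RNA was isolated. For MLN Cre+ samples 1 label, the cell type, reads Cre-, while the title, source and genotype read Cre+, and these 3 labels were used.

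Notch is a receptor that is cut when it binds a ligand on a neighbouring cell. Adam10 makes the first of these cuts and gamma-secretase the next, and the freed intracellular part enters the nucleus, where it joins Rbpj and the Mastermind-like proteins to switch on targets such as Hes1, a transcriptional repressor. In mouse spleen, Notch2 signalling in dendritic cells is needed for the CD11b+ ESAM+ conventional dendritic cells, and in the gut for CD103+CD11b+ dendritic cells. Stromal cells of lymphoid organs are a known source of ligand, and dendritic cells can themselves display Dll4, Dll1 and Jag1 to T cells.

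Rbpj binds a short DNA word, GTGGGAA, so the promoters of Notch targets are shown where they hold it. The 250 bases before each RefSeq gene start (build GRCm38.p6) were searched on both strands, where the word reads GTGGGAA or TTCCCAC, and 1779 of 32851 windows (5.415%) held at least 1 match. Among 12 target genes other than Hes1, windows were at hand for 8, 9 windows in all. Of these, 3 windows (33.33%) held a match, those of Hes5, Hes7 and Hey2, which encode transcriptional repressors of the Hes and Hey families. The word was not particular to the targets: outside this list, the pathway genes Lfng, Psen2 and Spen held 1 match each. Windows were at hand for 8 of the 9 genes of the rule, 10 windows in all, and none of the 10 held these letters. The gene without a window was Hes1, so its promoter was not searched. The 3 target windows with a match are given 5′ to 3′ on the strand of the gene, with the match in capitals. They lie at chr4:154960673-154960922 (plus strand, Hes5), chr11:69120203-69120452 (plus strand, Hes7) and chr10:30842784-30843033 (minus strand, Hey2).
Hes5: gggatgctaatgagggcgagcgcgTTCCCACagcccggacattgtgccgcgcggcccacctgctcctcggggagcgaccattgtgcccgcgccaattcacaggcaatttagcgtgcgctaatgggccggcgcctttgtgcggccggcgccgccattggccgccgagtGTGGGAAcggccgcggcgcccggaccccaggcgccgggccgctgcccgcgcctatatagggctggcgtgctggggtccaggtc
Hes7: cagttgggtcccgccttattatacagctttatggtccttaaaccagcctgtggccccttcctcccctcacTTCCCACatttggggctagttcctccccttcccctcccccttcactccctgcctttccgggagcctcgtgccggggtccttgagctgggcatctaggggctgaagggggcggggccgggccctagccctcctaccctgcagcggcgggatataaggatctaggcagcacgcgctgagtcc
Hey2: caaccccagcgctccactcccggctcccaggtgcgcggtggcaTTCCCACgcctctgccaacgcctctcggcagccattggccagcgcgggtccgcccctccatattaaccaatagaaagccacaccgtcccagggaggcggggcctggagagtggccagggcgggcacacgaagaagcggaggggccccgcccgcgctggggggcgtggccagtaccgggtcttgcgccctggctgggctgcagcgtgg
Hes5 held 2 matches, on opposite strands, and Hes7 and Hey2 held 1 each. The matches describe these windows and say nothing of binding in these cells.

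The state of the arrays bears on what can be compared. The deposited values had array medians of 6.74 to 6.89 in MLN and 7.03 to 7.08 in spleen on the log2 scale, and their SD over probe sets was 1.80 to 1.91 in MLN and 2.37 to 2.42 in spleen. Of the 100 lowest values of an array, a median of 7 recurred on another array of its tissue (30 pairs) and 0 on an array of the other tissue (36 pairs), as for tissues normalized apart. Tissue, sorting method and normalization therefore cannot be told apart, while the comparisons of Cre+ with Cre- lie within a tissue. The Tgfbr2 probe set read 0.24 lower in Cre+ than in Cre- spleen (limma, adjusted p = 0.138) and 0.12 lower in MLN (adjusted p = 0.524), with no overlap of the arrays in either tissue. The Y-linked Eif2s3y and Kdm5d fell in Cre+ spleen, by log2 differences of -6.73 and -3.92, so in spleen the genotype and a difference in sex cannot be told apart. In MLN the same genes differed by 0.18 and -0.04 and were not called. Between the tissues Eif2s3y differed by 4.43 in Cre+ and -2.48 in Cre- cells, and Kdm5d by 2.20 and -1.67, all called. The genotype difference of Eif2s3y also differed between the tissues (6.91, limma adjusted p = 0.00256). A difference in sex therefore cannot be told apart from tissue, nor from a genotype difference that varies between the tissues. Where nothing says that the spleen samples came from separate mice, p-values there measure only the spread between samples.

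**Figure D1:**
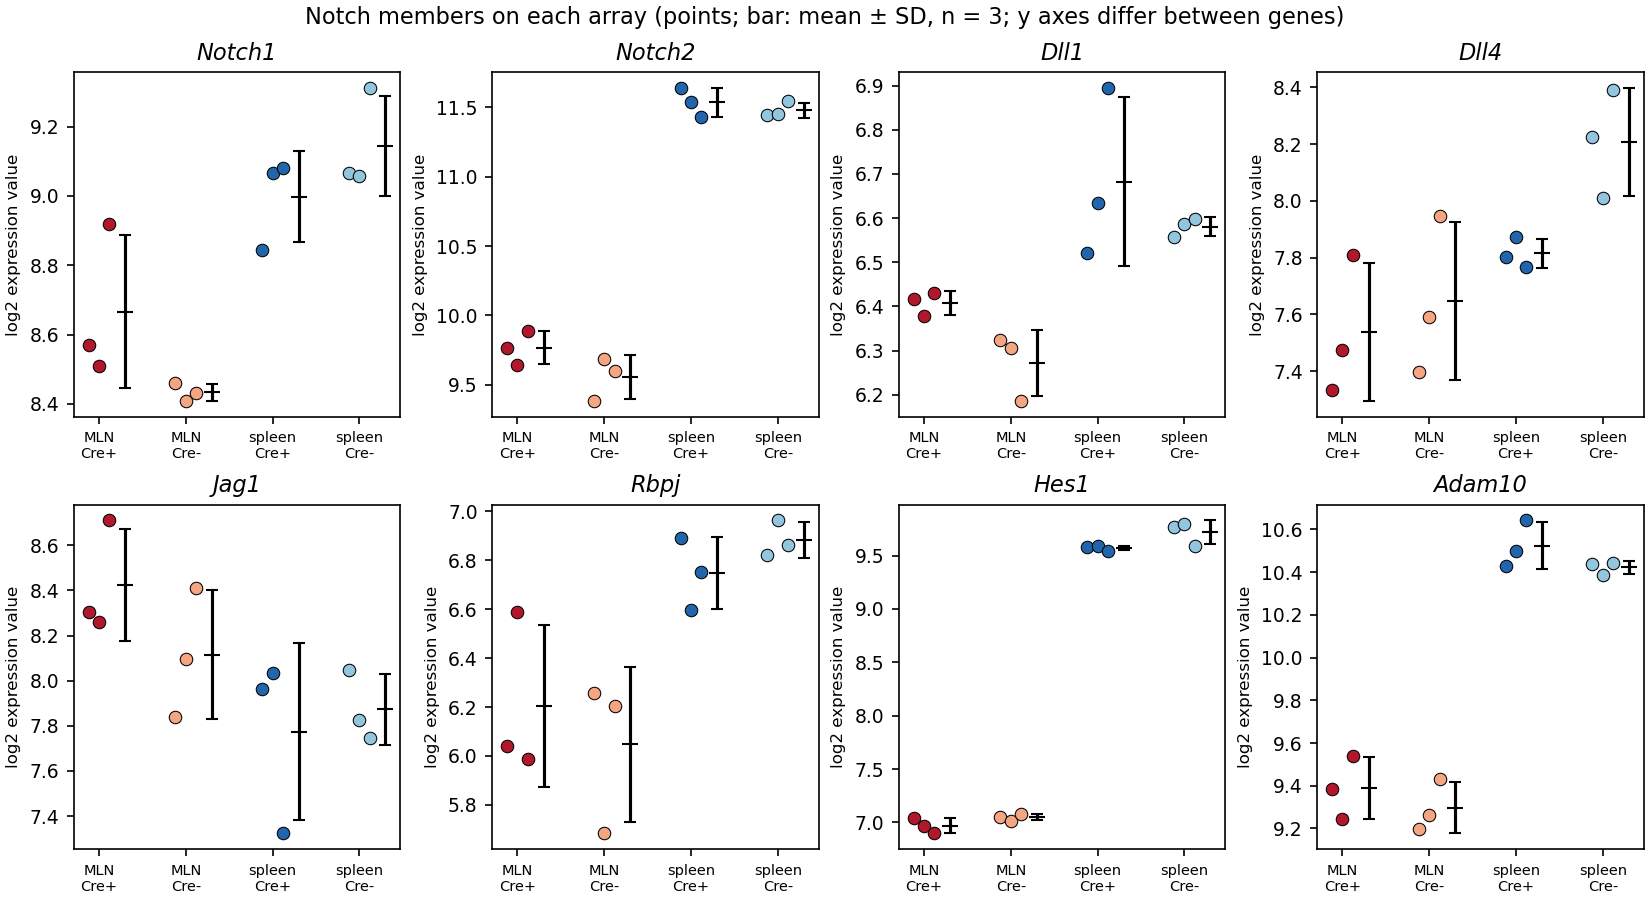
Deposited log2 expression value of each of the 8 measured genes on every array, with groups along the x axis; points are arrays and the bar beside them is the mean ± SD (n = 3). The MLN arrays sit far below the spleen arrays for Notch2, Hes1 and Adam10, while Cre+ and Cre- arrays of a tissue lie close together.

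No measured gene of the Notch set passed the test between Cre+ and Cre- cells in either tissue. In MLN 0 of 8 genes were called by limma at an adjusted p under 0.05, with adjusted p between 0.440 and 0.802, against 0.0857% of all 23332 probe sets; 0 of the 8 had an unadjusted p under 0.05, against 11.9% of all. In spleen 0 of 8 were called, with adjusted p between 0.252 and 0.875, against 2.17% of all probe sets; 1 of the 8, Dll4, had an unadjusted p under 0.05, against 16.2% of all. The 95% intervals of all 8 genes placed Cre+ cells between 72.6% and 171% of the Cre- level in MLN, and between 59.6% and 129% in spleen. An exact permutation test of 3 arrays against 3 cannot go below p = 0.1.

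Among the receptors, Notch1 read 8.57, 8.51 and 8.92 in MLN Cre+ arrays, against 8.46, 8.41 and 8.43 in MLN Cre- arrays. All 3 Cre+ arrays lay above the Cre- arrays, the last of them well clear of the rest. The difference was 0.23 ± 0.12 (SE, adjusted p = 0.464), and it was 0.11 without MLN Cre+ replicate 3 and 0.08 after quantile normalization. In spleen Notch1 read 8.85, 9.07 and 9.08 in Cre+ arrays, against 9.07, 9.06 and 9.31 in Cre- arrays, and the groups overlapped, with a difference of -0.15 ± 0.12 (SE, adjusted p = 0.616). It was -0.07 without spleen Cre+ replicate 1 and -0.06 without spleen Cre- replicate 3. Notch1 thus lay higher in Cre+ MLN and lower in Cre+ spleen, and the test of that contrast between tissues gave 0.38 (95% interval 0.00 to 0.76, adjusted p = 0.409), which did not pass.

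Notch2, the receptor that splenic CD11b+ dendritic cells depend on, read 9.77, 9.65 and 9.89 in MLN Cre+ arrays, against 9.38, 9.69 and 9.60 in MLN Cre- arrays. In spleen it read 11.64, 11.54 and 11.43 in Cre+ arrays, against 11.44, 11.45 and 11.54 in Cre- arrays. The groups overlapped in both tissues. The differences were 0.21 ± 0.10 (SE, adjusted p = 0.440) in MLN and 0.06 ± 0.10 (SE, adjusted p = 0.846) in spleen. For spleen the 95% interval left Cre+ cells between 88.9% and 122% of the Cre- level.

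Of the ligands, Dll4, which drives Notch signals into developing and activated T cells, read 7.80, 7.87 and 7.77 in spleen Cre+ arrays, against 8.22, 8.01 and 8.39 in spleen Cre- arrays. Every Cre+ array lay below every Cre- array. The difference of -0.39 ± 0.16 (SE) had an unadjusted p of 0.0332 and an adjusted p of 0.252, and an exact two-sided permutation test gave 0.1, the smallest it can give. In MLN Dll4 read 7.33, 7.47 and 7.81 in Cre+ arrays, against 7.40, 7.59 and 7.95 in Cre- arrays, and the groups overlapped (difference -0.11 ± 0.16, SE). Dll4 and Hes1 were the 2 of 8 genes whose spleen groups did not overlap, both lower in Cre+; 21.8% of all probe sets had spleen groups that did not overlap, 9.37% of all being lower in Cre+.

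Dll1, another Delta-like ligand, read 6.42, 6.38 and 6.43 in MLN Cre+ arrays, against 6.32, 6.30 and 6.19 in MLN Cre- arrays. The groups did not overlap, and the difference was 0.14 ± 0.10 (SE, adjusted p = 0.563). Notch1 and Dll1 were the 2 genes with MLN groups apart, both higher in Cre+, where 17.7% of all probe sets were apart and 13.4% of all were apart and higher. In spleen Dll1 read 6.52, 6.63 and 6.89 in Cre+ arrays, against 6.56, 6.59 and 6.60 in Cre- arrays, with overlap.

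Jag1, a ligand of the Jagged family, had the largest SE of the 8 genes, pooled over the groups. It read 8.30, 8.26 and 8.71 in MLN Cre+ arrays, against 7.84, 8.10 and 8.41 in MLN Cre- arrays. In spleen it read 7.97, 8.03 and 7.32 in Cre+ arrays, against 8.05, 7.82 and 7.75 in Cre- arrays. The differences were 0.31 ± 0.21 in MLN and -0.10 ± 0.21 in spleen (SE), with overlap in both tissues. Without the low spleen Cre+ array (replicate 3) the spleen difference was 0.13, so its sign rests on that array.

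Adam10, the protease that makes the ligand-dependent cut, read 9.39, 9.24 and 9.54 in MLN Cre+ arrays, against 9.20, 9.26 and 9.43 in MLN Cre- arrays. In spleen it read 10.43, 10.50 and 10.64 in Cre+ arrays, against 10.44, 10.39 and 10.44 in Cre- arrays. The groups overlapped in both tissues, and the differences were 0.09 and 0.10 (SE 0.10 each). Rbpj, the DNA-binding transducer, read 6.04, 6.59 and 5.99 in MLN Cre+ arrays, against 6.26, 5.68 and 6.20 in MLN Cre- arrays, and 6.89, 6.60 and 6.75 in spleen Cre+ arrays, against 6.82, 6.96 and 6.86 in spleen Cre- arrays. Both comparisons overlapped, with differences of 0.16 in MLN and -0.13 in spleen (SE 0.18 each). The MLN means of 6.20 in Cre+ and 6.05 in Cre- cells lay under 6.37, the 40th percentile of all values, below which a probe set was taken as dim, and so did the MLN Cre- mean of Dll1 (6.27).

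Hes1, the transcriptional target in the set, had the smallest SE of the 8 genes. It read 7.04, 6.97 and 6.90 in MLN Cre+ arrays, against 7.05, 7.02 and 7.07 in MLN Cre- arrays, with overlap. In spleen it read 9.58, 9.59 and 9.54 in Cre+ arrays, against 9.77, 9.80 and 9.59 in Cre- arrays. The spleen groups did not overlap, though the highest Cre+ and the lowest Cre- array both rounded to 9.59. The differences were -0.08 ± 0.08 (SE, adjusted p = 0.694) in MLN and -0.15 ± 0.08 (SE, adjusted p = 0.380) in spleen.

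**Figure D2:**
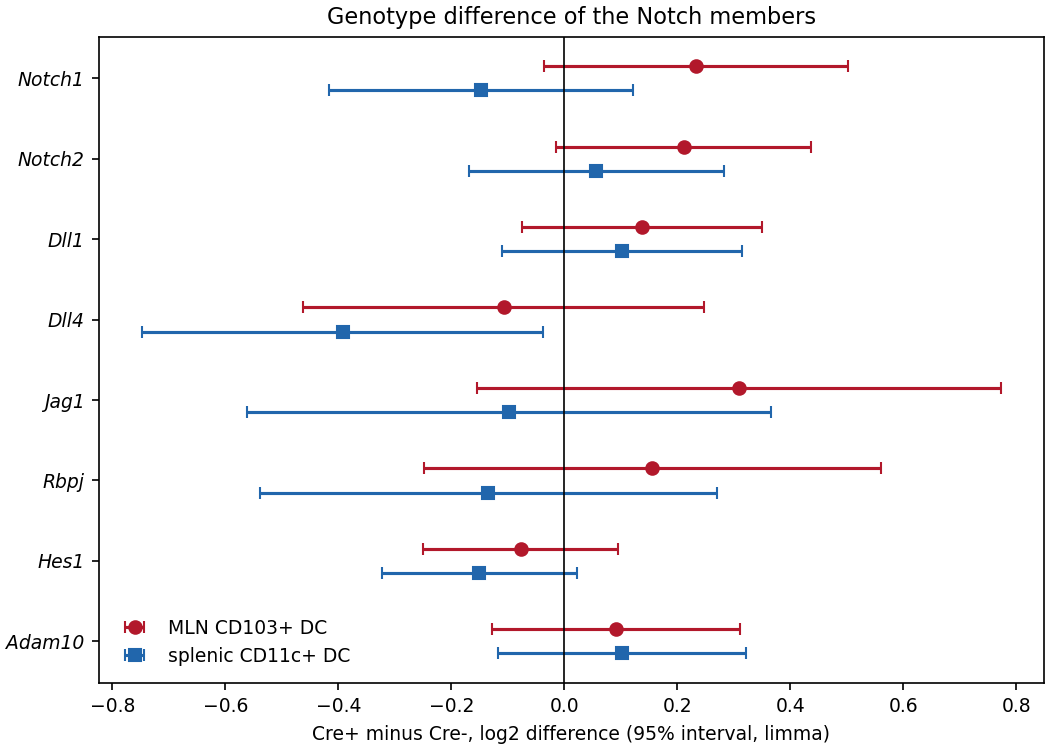
Difference in log2 expression between Cre+ and Cre- cells for the 8 genes (y axis), with 95% intervals from limma, for MLN CD103+ cells (red circles) and splenic CD11c+ cells (blue squares). The intervals include 0 except for Dll4 in spleen, whose adjusted p was 0.252.

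The directions were mixed in spleen, where 3 of 8 differences were positive (median -0.12, against 0.01 over all probe sets, of which 52.9% were positive). In MLN 6 of 8 were positive (median 0.15, against 0.08 over all probe sets, of which 66.7% were positive). The genotype difference did not pass a test of change between the tissues for any of the 8 genes (limma, adjusted p 0.409 to 0.984, against 0.163% of all probe sets called); 1 of 8, Notch1, had an unadjusted p under 0.05, against 12.2% of all.

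Cell type markers moved between the spleen groups. Over all probe sets 2.17% were called between genotypes in spleen and 0.0857% in MLN. Of 10 neutrophil markers 7 rose in Cre+ spleen, and their mean level was 9.42 to 10.3 in Cre+ arrays, against 8.32 to 8.49 in Cre- arrays; 6 of 9 proliferation genes rose, 3 of 10 macrophage markers and 2 of 6 plasmacytoid dendritic cell markers fell. In MLN 1 of 10 macrophage markers rose, and the mean level of these markers was 7.42 to 7.65 in Cre+ arrays, against 6.82 to 7.17 in Cre- arrays; 0 of 10 neutrophil markers were called there. Of 8 T cell markers 0 were called in either tissue (limma), but spleen Cre+ replicate 1 stood apart: their mean level was 8.16 there and 9.28 and 9.35 in the other Cre+ spleen arrays, against 8.57 to 8.83 in Cre- spleen arrays. Cd3e, a chain of the T cell receptor complex, read 9.24 in that array and 10.79 and 10.96 in the other Cre+ spleen arrays. The same array held the lowest Notch1 value in spleen. Of 9 CD11b+ (type 2) dendritic cell markers, Clec4a4 rose and Mgl2 fell in Cre+ spleen, and neither passed after quantile normalization. In MLN Clec4a1 alone of these rose, averaging 7.83 in Cre+ and 6.77 in Cre- arrays. The mean level of the 9 markers was 8.15 to 8.28 in MLN Cre+ arrays, against 7.86 to 8.12 in MLN Cre- arrays. Of 10 markers of endothelial cells, in which Notch1, Dll4 and Notch4 are known to act, none was called between genotypes (limma; 0 of 10 in each tissue), and their mean level was 6.12 to 6.18 in MLN Cre+ arrays, 6.10 to 6.15 in MLN Cre- arrays, 6.41 to 6.61 in spleen Cre+ arrays and 6.48 to 6.60 in spleen Cre- arrays. Fewer cells of a type and less RNA per cell cannot be told apart in such samples. The part of all these cell types in the values of the Notch genes was not tested.

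For Hes1 and Notch2 the differences between the tissues were larger, as deposited, than any genotype difference of the 8 genes. Hes1 averaged 6.97 ± 0.07 in MLN Cre+ arrays and 9.57 ± 0.02 in spleen Cre+ arrays (SD, n = 3 each), a difference of -2.60 ± 0.08 (SE, limma adjusted p = 1.4e-08), or 6.06-fold lower in MLN. In Cre- cells Hes1 averaged 7.05 ± 0.03 in MLN and 9.72 ± 0.11 in spleen (SD, n = 3 each), 6.37-fold lower in MLN. Of all probe sets, 0.694% in Cre+ and 1.05% in Cre- cells had a lower MLN minus spleen difference than Hes1, and after quantile normalization 1.39% in Cre+ and 2.49% in Cre- cells.

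Notch2 averaged 9.77 ± 0.12 in MLN Cre+ arrays and 11.54 ± 0.10 in spleen Cre+ arrays (SD, n = 3 each), which was 3.41-fold lower in MLN (difference -1.77 ± 0.10, SE, limma adjusted p = 1.41e-07). In Cre- cells it averaged 9.56 ± 0.16 in MLN and 11.48 ± 0.05 in spleen (SD, n = 3 each), 3.79-fold lower in MLN. No MLN array reached the level of any spleen array for Notch2 or Hes1, as the plot of every array shows.

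Most probe sets differed between the tissues, so a call by itself carries little. In Cre+ cells 6 of the 8 genes fell in MLN and 1 rose, where 71.7% of all probe sets were called, 45.2% of all being lower and 26.5% higher. In Cre- cells 7 fell and 0 rose, where 75.3% of all were called and 49% were lower. The median difference of the 8 genes was -0.44 in Cre+ and -0.77 in Cre- cells, against -0.24 in Cre+ and -0.36 in Cre- cells over all probe sets.

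Adam10 differed by -1.13 in Cre+ and -1.12 in Cre- cells, and Rbpj by -0.54 in Cre+ and -0.83 in Cre- cells, all of them called. The MLN minus spleen difference of Notch1 was -0.33 in Cre+ and -0.71 in Cre- cells, and that of Dll1 was -0.27 in Cre+ and -0.31 in Cre- cells, also all called. Single Cre+ arrays decided several of these Cre+ calls: that of Notch1 was lost without spleen replicate 2 or 3 or MLN replicate 1 or 2 (adjusted p 0.0861 to 0.116), that of Dll1 without spleen replicate 3 or MLN replicate 1 or 2 (0.0518 to 0.0885), and that of Rbpj without spleen replicate 1 or MLN replicate 1 or 3 (0.0680 to 0.0768). Dll4 differed by -0.28 in Cre+ cells (adjusted p = 0.145, and 0.0431 without MLN Cre+ replicate 3) and fell by 0.56 in Cre- cells (adjusted p = 0.00812). Jag1 rose by 0.65 in Cre+ cells (adjusted p = 0.0163) and differed by 0.24 in Cre- cells (adjusted p = 0.311). It was the only one of the 8 genes with a higher mean in MLN than in spleen as deposited, and its Cre+ call missed when the replicate 3 array of spleen (adjusted p = 0.0633) or of MLN (adjusted p = 0.0668) was left out.

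Because the tissues had been normalized apart, each tissue difference was also taken after quantile normalization of all 12 arrays and after every array was shifted to a common median. In Cre+ cells the median difference of all probe sets was -0.24 as deposited, 0.03 after quantile normalization and -0.02 at a common median; in Cre- cells it was -0.36, 0.03 and -0.06. Of all calls, the share that was higher in MLN was 37.0% as deposited, 52.8% after quantile normalization and 47.3% at a common median in Cre+ cells, and 34.9%, 53.6% and 47.2% in Cre- cells. After quantile normalization 4 of the 8 genes fell and 2 rose in each genotype, where 58% of all probe sets in Cre+ and 64.1% in Cre- cells were called.

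Hes1 and Notch2 were the 2 of 8 genes called lower in MLN in both genotypes under all 3 scalings, which held for 18.4% of all probe sets, and none was called higher throughout, against 15.7% of all. After quantile normalization the difference of Hes1 was -1.96 in Cre+ and -1.92 in Cre- cells, and that of Notch2 was -0.74 in Cre+ and -0.80 in Cre- cells. Rbpj was the third of 3 genes called lower under all 3 scalings in Cre- cells, against 23.7% of all probe sets, with differences of -0.83 to -0.54. At a common median its Cre+ difference of -0.33 did not pass (adjusted p = 0.131).

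Notch1 changed sign with the scaling. After quantile normalization it was higher in MLN, by 0.52 in Cre+ (adjusted p = 0.00245) and 0.28 in Cre- cells (adjusted p = 0.0482), so no direction is given for it. Dll4 also changed sign after quantile normalization, to 0.24 in Cre+ and 0.18 in Cre- cells, neither of which passed. Adam10 lost its call there, with a difference of -0.09 in Cre+ (adjusted p = 0.278) and -0.0031 in Cre- cells (adjusted p = 0.973).

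Jag1 lay on the other side from Notch2 and Hes1. After quantile normalization it was higher in MLN by 1.29 in Cre+ and 1.03 in Cre- cells, both called, and at a common median by 0.87 in Cre+ and 0.54 in Cre- cells, both called. Markers of stromal cells lay the same way: 5 of 8 rose in MLN in Cre+ and 6 of 8 in Cre- cells as deposited, and 6 of 8 in each after quantile normalization, and none fell. Of all 23332 probe sets, 6188 in Cre+ and 6134 in Cre- cells rose as deposited. After quantile normalization 7147 in Cre+ and 8027 in Cre- cells rose. The mean level of the stromal markers was 6.29 to 6.38 in MLN Cre+ and 5.69 to 6.16 in spleen Cre+ arrays, and 6.31 to 6.43 in MLN Cre- and 5.79 to 5.90 in spleen Cre- arrays. All of the spleen levels lay under the dim level of 6.37 and the MLN levels lay near it, so these markers were dim. Their part in the value of Jag1 was not tested. Dll1 was lower in MLN after quantile normalization, with -0.26 in Cre+ and -0.29 in Cre- cells, and at a common median it differed by -0.06 in Cre+ and -0.01 in Cre- cells, neither of which passed.

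**Figure D3:**
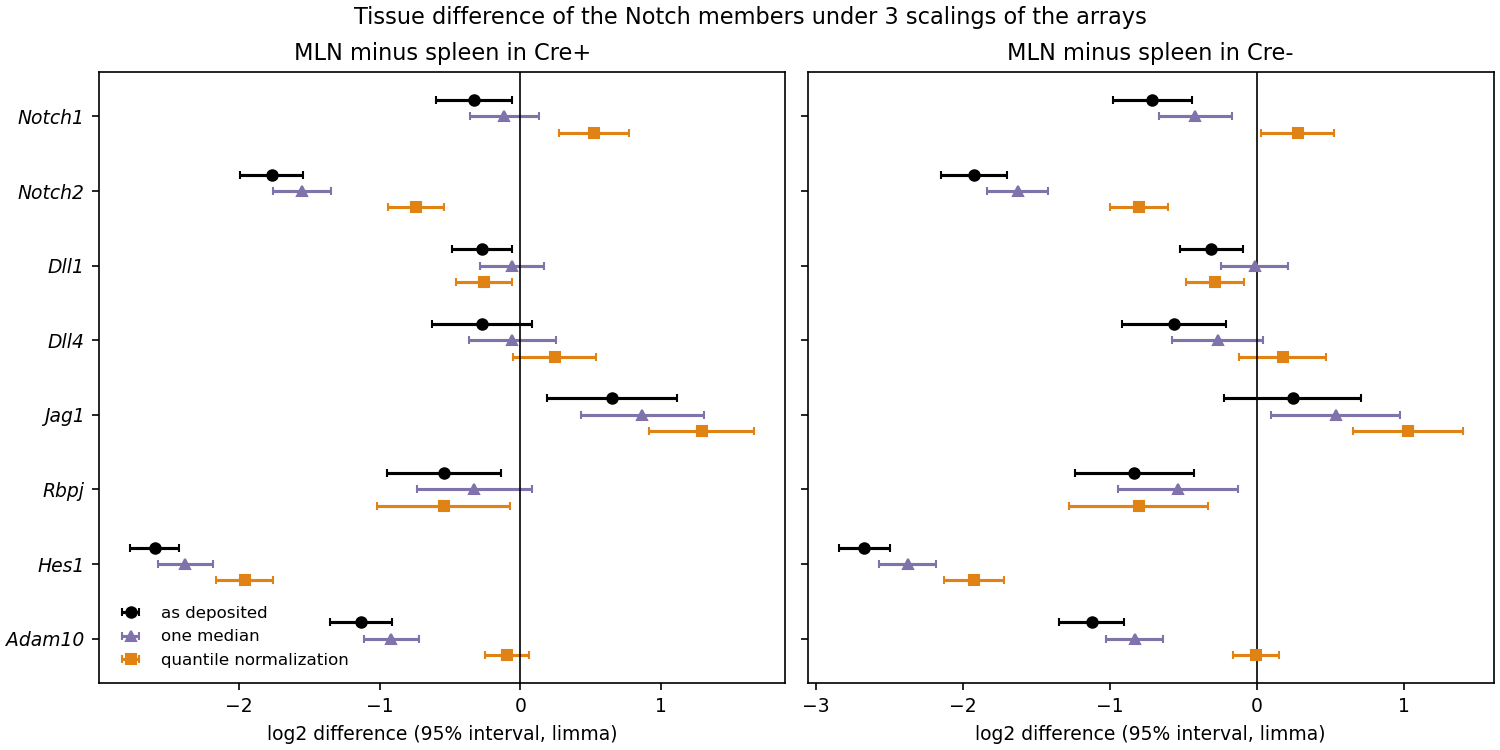
MLN minus spleen difference in log2 expression with 95% intervals from limma for the 8 genes (y axis) in Cre+ (left) and Cre- cells (right), as deposited (black circles), at a common median (purple triangles) and after quantile normalization (orange squares). Hes1 and Notch2 stay below 0 under each scaling, while Notch1 and Dll4 cross 0.

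The sorted cells differed in markers as well. Itgae, which encodes CD103, the surface protein used to sort MLN cells, differed between MLN and spleen by 0.42 in Cre+ cells as deposited, which did not pass (adjusted p = 0.0805), and was higher in MLN by 1.06 in Cre- cells. After quantile normalization it was higher by 0.89 in Cre+ and 1.66 in Cre- cells, both called. Itgax, which encodes CD11c, had no probe set of 1 symbol. As deposited in Cre- cells, 9 of 10 macrophage markers, 8 of 10 neutrophil markers and 8 of 9 CD11b+ (type 2) dendritic cell markers fell in MLN. So did 8 of 8 type 1, 6 of 6 plasmacytoid and 7 of 8 general dendritic cell markers, and 0 of these rose. Of all probe sets 49% were lower in that comparison. After quantile normalization in Cre- cells the dendritic cell markers no longer fell as a whole. Of the type 2 markers 6 fell and 1 rose, and of the type 1 markers 2 fell and 1 rose. Of the plasmacytoid markers 3 fell and 0 rose, and of the general markers 2 fell and 3 rose. In that setting 64.1% of all probe sets were called. The mean level of the macrophage markers was 9.97 to 10.1 in spleen Cre+ and 10.3 to 10.6 in spleen Cre- arrays, above the MLN levels given earlier. B cell markers averaged 10.4 to 10.6 over the 6 MLN arrays and 11.3 to 11.7 over the 6 spleen arrays as deposited, where 8 of 9 fell in each genotype; after quantile normalization 2 rose and 3 fell in Cre+ and 2 rose and 2 fell in Cre- cells. Their part in the tissue differences of Notch2 and Hes1 was not tested.

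Beyond the rule, 56 of 74 other genes had a probe set of 1 symbol; 8 of the 56 were genes of Notch2-dependent dendritic cells and the rest genes of the pathway. Between genotypes 1 of 56 rose and none fell in MLN (limma), against 0.0857% of all probe sets called. In spleen 2 rose and none fell, against 2.17% of all. No difference between the tissues in the genotype effect passed, against 0.163% of all. Itgam and Clec4a4, 2 of the 3 genes called, belong to those 8. The median difference of all 56 genes was 0.11 in MLN and 0.03 in spleen, against 0.08 and 0.01 over all probe sets. For the 8 genes of Notch2-dependent dendritic cells it was 0.26 in MLN and 0.21 in spleen.

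Itgam, which encodes CD11b, rose in MLN Cre+ cells: it read 8.17, 8.33 and 8.22 in Cre+ arrays, against 7.30, 7.22 and 7.36 in Cre- arrays, 1.93-fold higher (difference 0.95 ± 0.11, SE, limma adjusted p = 0.0186). Every Cre+ array lay above every Cre- array, as for the mean levels of the macrophage markers and of the type 2 dendritic cell markers given above. The call was lost when any MLN array but Cre- replicate 3 was left out, with adjusted p between 0.0673 and 0.114, and with the 6 MLN arrays alone (adjusted p = 0.0705). In spleen Itgam differed by 0.33 (adjusted p = 0.173).

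Clec4a4, a C-type lectin of the splenic dendritic cells that need Notch2, rose in Cre+ spleen: it read 8.73, 8.58 and 8.004 in Cre+ arrays, against 7.59, 7.30 and 7.63 in Cre- arrays, 1.91-fold higher (limma adjusted p = 0.0344). Dtx3l, a Deltex-family ubiquitin ligase, read 10.56, 10.58 and 10.29 in spleen Cre+ arrays, against 9.77, 9.75 and 9.88 in spleen Cre- arrays, 1.60-fold higher (limma adjusted p = 0.0369). Neither overlapped between genotypes, and neither passed with the 6 spleen arrays alone (adjusted p = 0.145 for Clec4a4 and 0.0949 for Dtx3l). Both calls were also lost without spleen Cre+ replicate 1 or 2 or spleen Cre- replicate 1 or 2, with adjusted p up to 0.130 for Clec4a4 and 0.139 for Dtx3l. Esam, the surface marker after which the Notch2-dependent splenic cells are named, read 8.54, 8.65 and 8.29 in Cre+ spleen, against 8.66, 8.49 and 8.06 in Cre- spleen, with overlap. In spleen these differences lay beside the neutrophil and Y-linked differences given above.

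**Figure D4:**
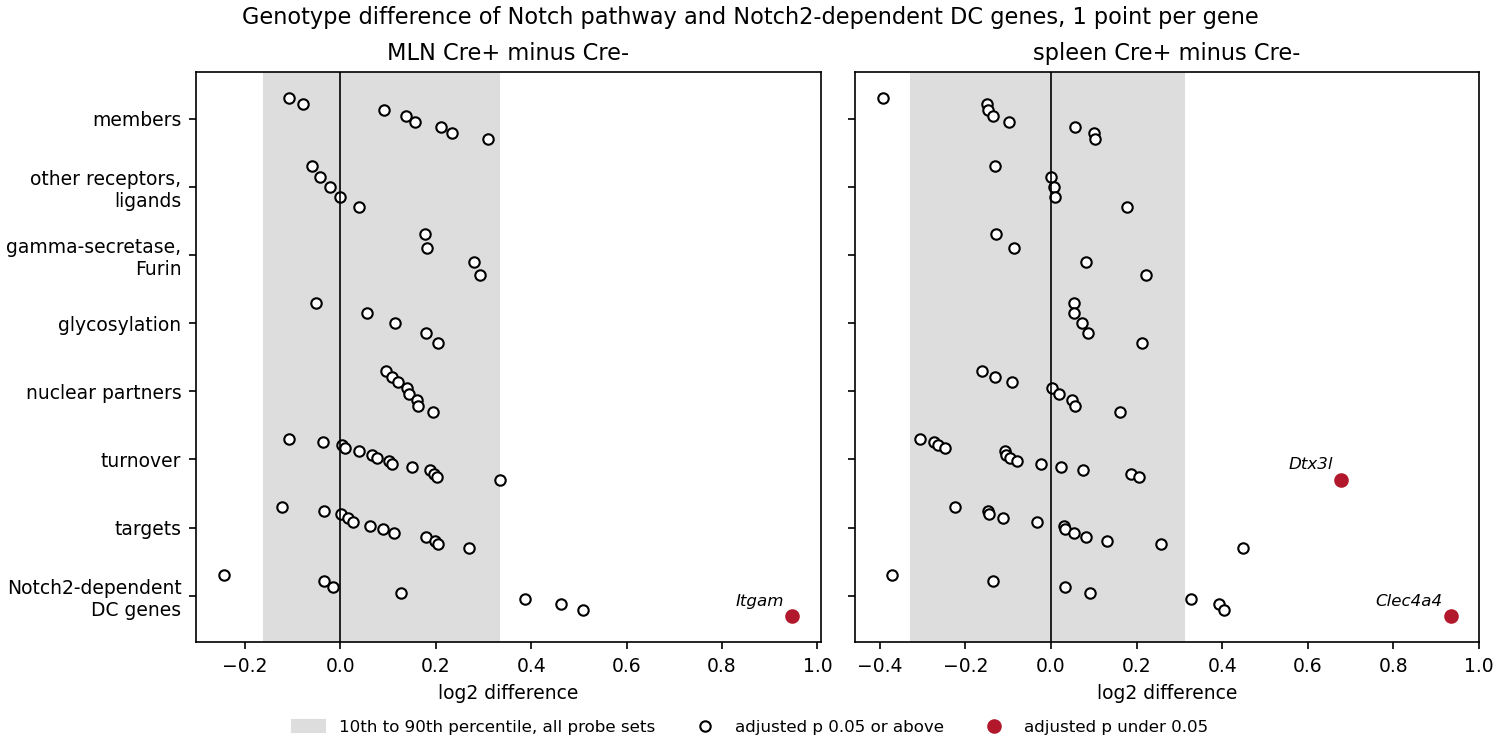
Difference in log2 expression between Cre+ and Cre- cells for Notch pathway genes and genes of Notch2-dependent dendritic cells, 1 point per gene, by role (y axis), in MLN (left) and spleen (right); grey marks the 10th to 90th percentile of all probe sets and red the genes with adjusted p under 0.05. Itgam in MLN and Dtx3l and Clec4a4 in spleen were called, and none of the 8 genes of the rule (labelled members) was.

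By role, no gene was called between genotypes in either tissue among 5 other receptors and ligands, 4 genes of the cleavage machinery (the gamma-secretase subunits Psen2, Ncstn and Aph1c and the protease Furin), 5 enzymes that attach sugars to the receptor, 8 nuclear partners of Rbpj and 12 transcriptional targets. Of the 14 genes that turn over receptor and ligand, Dtx3l was the only one called. The target with the lowest adjusted p in spleen was Myc, a growth regulator, which read 11.93, 12.02 and 11.99 in Cre+ arrays, against 11.40, 11.41 and 11.78 in Cre- arrays, without overlap (difference 0.45 ± 0.11, SE, adjusted p = 0.0681).

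Between the tissues in Cre+ cells, 7 of the 56 genes rose and 34 fell in MLN as deposited, and 21 rose and 18 fell after quantile normalization. In Cre- cells 7 rose and 39 fell as deposited, and 24 rose and 18 fell after quantile normalization. Under all 3 scalings and in both genotypes 16 of 56 were called lower and 5 higher, where 18.4% of all probe sets were lower and 15.7% higher.

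Those higher were the ligand Dll3 and the Delta-like proteins Dlk1 and Dlk2, the ubiquitin ligase Neurl1a and the target Il2ra. The difference of Dll3 was 0.54 in Cre+ and 0.58 in Cre- cells as deposited, and 0.46 in Cre+ and 0.59 in Cre- cells after quantile normalization. Dll3 read 5.78 to 6.13 on the spleen arrays and 6.43 to 6.55 on the MLN arrays. Every spleen array lay under the dim level given above, so the size of this difference rests on a dim spleen signal.

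Nrarp, a feedback inhibitor of Notch and a direct target, was among those lower under each scaling. It read 6.08, 5.99 and 6.26 in MLN Cre+ arrays, against 7.38, 7.80 and 7.66 in spleen Cre+ arrays, and 5.83, 6.30 and 6.30 in MLN Cre- arrays, against 7.87, 7.60 and 7.80 in spleen Cre- arrays. Every MLN array lay under the dim level of 6.37, so the size of the difference rests on a dim MLN signal. The groups were apart in both genotypes, with differences of -1.51 in Cre+ and -1.62 in Cre- cells as deposited and -1.36 and -1.41 after quantile normalization.

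The targets Ccnd1, which encodes a cyclin, and Myc were lower in MLN in both genotypes under all 3 scalings as well. In Cre- cells the difference of Ccnd1 was -2.20 as deposited and -1.10 after quantile normalization, and that of Myc was -1.81 and -0.70. Il2ra, the alpha chain of the interleukin-2 receptor, was higher throughout, by 1.11 as deposited and by 1.999 after quantile normalization in Cre- cells. Il2ra is also made by T cells, and of 8 T cell markers 5 rose in MLN in Cre+ and 6 in Cre- cells as deposited, and all 8 in each after quantile normalization. Their mean level was 9.40 to 9.60 in MLN Cre+ and 8.16 to 9.35 in spleen Cre+ arrays, and 9.47 to 9.64 in MLN Cre- and 8.57 to 8.83 in spleen Cre- arrays; their part in the value of Il2ra was not tested. Of the 3 targets whose promoters are printed above, in Cre- cells Hes5 differed by -0.26 and Hes7 by -0.37, both called, and Hey2 by 0.32, also called, although Hey2 read 5.13 to 5.81 on the 12 arrays and was dim on every one. After quantile normalization none of the 3 passed, with 0.03 for Hes5, whose sign had changed, -0.15 for Hes7 and 0.01 for Hey2.

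Of the nuclear partners, all 8 fell in MLN in both genotypes as deposited, whereas after quantile normalization 5 fell and 2 rose. Maml3, a Mastermind-like coactivator, was lower, with -1.05 in Cre- cells as deposited and -0.74 after quantile normalization, and Snw1, a coregulator that binds Rbpj, with -1.84 and -0.91. The gamma-secretase subunit Aph1c was lower in both genotypes under each scaling (-1.49 as deposited and -0.47 after quantile normalization in Cre- cells). Psen2, a catalytic subunit of gamma-secretase, changed sign in Cre- cells, with -0.45 as deposited and 0.41 after quantile normalization.

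Of the 8 genes of Notch2-dependent dendritic cells, 0 rose and 5 fell in MLN in Cre+ and 1 rose and 6 fell in Cre- cells as deposited, and 3 rose and 4 fell in each genotype after quantile normalization. Esam differed by 0.34 in Cre+ (adjusted p = 0.185) and 0.05 in Cre- cells (adjusted p = 0.856) as deposited, and was higher in MLN after quantile normalization by 1.15 in Cre+ and 0.95 in Cre- cells, as was Itgae. Itgam, Clec4a4, Sirpa and Irf4 were lower in MLN in both genotypes under all 3 scalings. In Cre- cells their differences after quantile normalization were -2.01, -2.50, -1.19 and -0.70. Most of them are also markers of type 2 dendritic cells. They lay beside the macrophage marker levels given above, and the MLN cells had been sorted on CD103.

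The genes whose pattern was most like each member's were ranked by Pearson's r over the 12 arrays, after each tissue's mean had been removed, among 13597 genes. These values are a description, since arrays share their normalization run and their group. For the receptors the closest were Scaf8 for Notch1 (r = 0.946) and Tsc1 for Notch2 (r = 0.937). For the ligands they were St3gal6 for Dll1 (r = 0.943), Kctd12 for Dll4 (r = 0.922) and Niban1 for Jag1 (r = 0.962). Rfk was closest to Adam10 (r = 0.954), Ribc1 to Rbpj (r = 0.936) and Slc39a12 to Hes1 (r = 0.905). The number of genes with r above 0.9 was 54 for Adam10 and 51 for Jag1, and between 1 and 10 for the other 6 genes.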

How the data were processed

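Per the labels, the authors deposited log2 values per gene that came from GeneSpring's robust multi-array averaging. No software version, probe annotation or genome build is named in the sources used. Gene names are those of the platform annotation: 14996 of 23332 had 1 gene symbol, 1019 several and 7317 none. Groups came from the sample titles. One linear model over all 12 arrays with 4 group means (8 residual degrees of freedom) was fitted to all 23332 probe sets with limma 3.58.1 in R 4.3.3, and p-values were adjusted over all of them by the method of Benjamini and Hochberg; a call is an adjusted p under 0.05, and a difference is on the log2 scale. The number of arrays limits the precision. The fit was tested on simulated data. Alternatives were other scalings, a filter on dim probe sets (6.37, which kept all 8 genes), other variance models, array weights, a replicate block, the arrays of a tissue alone and leaving out each array. Promoter windows were taken from RefSeq. The genes of the rule and the gene lists were chosen with earlier results of these data known. Genes of each list were named where called, up to 6 per list and comparison by smallest p, and otherwise the 2 of smallest p; Esam and Hes5 were added after their values were seen.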

Additional observations from a re-analysis of the deposited data

Results flagged for a closer look

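Kdm5a, a histone demethylase that acts with Rbpj in repression, had Cre+ and Cre- arrays that did not overlap, with differences of opposite sign in the tissues: every Cre+ array lay above every Cre- array in MLN (difference 0.14, limma adjusted p = 0.491) and below it in spleen (difference -0.16, adjusted p = 0.372). Neither was called, and the MLN difference was -0.018 after quantile normalization. The lowest MLN Cre+ array read 8.5095 and the highest MLN Cre- array 8.5086, so the MLN groups were barely apart. Of all probe sets, 13.4% were apart and higher in Cre+ MLN, and 9.37% were apart and lower in Cre+ spleen. The MLN difference minus the spleen difference was 0.31, with an adjusted p of 0.332 in the limma interaction test, which did not pass. In spleen the Y-linked genes, among them the related Kdm5d, differed with genotype; the part of this in the value was not tested.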

How the results depend on the processing

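With 3 arrays a group the intervals are wide. No genotype difference of the 8 genes was called under any alternative, and 149 of 152 values in spleen and 148 of 152 in MLN kept their sign. The exceptions were Jag1 in spleen with array weights (0.13), Adam10 in MLN after quantile normalization (-0.060), and values without 1 array: Dll1 in spleen (-0.0037 to 0.18), Jag1 in spleen (-0.23 to 0.13), Rbpj in MLN (-0.036 to 0.26) and Dll4 in MLN (-0.24 to 0.043). Of the differences between tissues in the genotype effect, Hes1 turned to -0.036 after quantile normalization and -0.0049 at a common median, Dll1 to -0.043 at a common median, and leaving out 1 array gave -0.047 to 0.14 for Dll1 and -0.085 to 0.062 for Adam10. The MLN minus spleen difference of Notch1 turned to 0.52 in Cre+ and 0.28 in Cre- cells after quantile normalization, and that of Dll4 to 0.24 in Cre+ and 0.18 in Cre- cells, where the arrays of both tissues were given 1 distribution. The count of genes called between the tissues in Cre+ cells was 4 in place of 7 at a common median, and 4 to 7 without 1 array; it was 4 without spleen Cre+ replicate 3 or MLN Cre+ replicate 1. The cause was not tested.

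Without 1 array the calls over all probe sets ran from 141 to 519 in spleen and 0 to 42 in MLN. Of the 56 other genes, 0 to 7 were called in spleen and 0 to 3 in MLN over all alternatives, the highest with array weights. The weight was 6.04 for spleen Cre+ replicate 2, against 0.68 for replicate 1 and 0.46 for replicate 3. Spleen calls under that setting thus lean on 1 array. The share of all probe sets called with array weights is not given, so the counts cannot be set against it. Array weights called Mfng, Mib2, Dtx3l, Dtx4, Myc, Clec4a4 and Ltb in spleen, and Clec4a4, Sirpa and Itgam in MLN, and in the test between the tissues they called 2, Sirpa and Itgam (adjusted p = 0.0170 for Itgam). Without 1 array the adjusted p in spleen ran from 0.0203 to 0.139 for Dtx3l and from 0.0108 to 0.130 for Clec4a4, which also missed after quantile normalization (0.0642). Beside the 4 spleen arrays named for both, Dtx3l missed without spleen Cre- replicate 3, MLN Cre- replicate 1 or 2 or MLN Cre+ replicate 2, and Clec4a4 without MLN Cre- replicate 1 or MLN Cre+ replicate 1 or 2. Myc passed in spleen at a common median, with the filter on dim probe sets and without spleen Cre- replicate 3.

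The replicate numbers shared by the groups showed no sign of pairing in spleen. Same-numbered samples correlated there by -0.14 to 0.00, and 0 of 6 arrays correlated best with their own number. In MLN they correlated by 0.00 to 0.31, and 4 of 6 arrays correlated best with their own number, so a pairing there is not excluded. With the replicate number as a block, 0 of 8 genes were called between genotypes in each tissue and 7 of 8 between the tissues in each genotype; in Cre+ cells Dll4 passed (adjusted p = 0.0492) and Rbpj missed (0.0741). With this block Clec4a4 (0.0836) and Itgam (0.144) missed, and Dtx3l passed (0.0478).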
